A study of Mus musculus with 12 samples.

Results

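The adipokines and adipocyte identity genes described here are 10 genes of the 23042 with a value in these data: Adipoq, Lep, Retn, Cfd, Rbp4, Cebpa, Cebpb, Nrip1, Adrb3 and Cav1. They were chosen by name, each had 1 entry in the table of either tissue, and none shared its entry with another gene. RNA was sequenced from epididymal white adipose tissue (EWAT) and from heart ventricles of WT mice and of MED13cTg mice, transgenic mice that overexpress the Mediator subunit MED13 in the heart. All were male C57BL/6 littermates of 6 weeks on normal chow, sampled in the fed state late in the day, and there were 3 libraries per genotype and tissue. The promoter that drives the transgene is not given in the sources used here. Levels are given in FPKM, the fragments of a gene corrected for transcript length and for the mapped fragments of the library.

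Adipokines are proteins that fat cells release into the blood. Adiponectin and leptin act on distant organs to raise insulin sensitivity and to curb appetite, and resistin, adipsin and retinol binding protein 4 are other abundant products of mouse fat. The CCAAT/enhancer binding proteins C/EBPβ and C/EBPα act in sequence during fat cell formation, the latter together with PPARγ, and keep the adipocyte program on. The β3-adrenergic receptor transmits the lipolytic signal of sympathetic nerves, and caveolin-1 builds the caveolae that crowd the fat cell membrane.

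Because 2 members encode C/EBP factors, the promoters of members at both ends of this circuit are shown: those of 2 hormones, Adipoq and Lep, and those of the 2 C/EBP genes. The sequences are from RefSeq on the build GRCm38.p6, all on the plus strand, and run from 250 bases before to 50 bases after the gene's start. They lie at chr16:23146286-23146585 for Adipoq, chr6:29059971-29060270 for Lep, chr7:35119043-35119342 for Cebpa and chr2:167688665-167688964 for Cebpb. Capitals mark matches, on either strand, to 3 strings of letters: the C/EBP core TTGCNNAA, the box CCAAT, and the string TATAAA of a TATA box. No match in these 4 sequences overlaps another.
Adipoq: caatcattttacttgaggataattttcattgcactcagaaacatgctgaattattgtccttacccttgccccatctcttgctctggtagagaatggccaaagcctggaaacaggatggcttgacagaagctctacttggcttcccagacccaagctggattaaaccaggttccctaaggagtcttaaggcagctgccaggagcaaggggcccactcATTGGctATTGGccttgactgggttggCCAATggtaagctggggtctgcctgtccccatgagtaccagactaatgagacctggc
Lep: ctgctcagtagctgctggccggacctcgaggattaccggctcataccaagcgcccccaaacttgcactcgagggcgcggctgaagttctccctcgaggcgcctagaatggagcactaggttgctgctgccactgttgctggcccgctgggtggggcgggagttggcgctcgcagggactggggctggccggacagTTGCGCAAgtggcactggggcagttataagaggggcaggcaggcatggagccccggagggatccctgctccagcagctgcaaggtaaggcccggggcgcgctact
Cebpa: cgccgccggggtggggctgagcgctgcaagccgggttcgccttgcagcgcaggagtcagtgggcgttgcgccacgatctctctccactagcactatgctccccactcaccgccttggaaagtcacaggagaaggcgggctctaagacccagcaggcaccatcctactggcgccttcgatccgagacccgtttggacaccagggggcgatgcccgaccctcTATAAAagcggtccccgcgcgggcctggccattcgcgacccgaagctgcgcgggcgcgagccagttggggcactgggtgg
Cebpb: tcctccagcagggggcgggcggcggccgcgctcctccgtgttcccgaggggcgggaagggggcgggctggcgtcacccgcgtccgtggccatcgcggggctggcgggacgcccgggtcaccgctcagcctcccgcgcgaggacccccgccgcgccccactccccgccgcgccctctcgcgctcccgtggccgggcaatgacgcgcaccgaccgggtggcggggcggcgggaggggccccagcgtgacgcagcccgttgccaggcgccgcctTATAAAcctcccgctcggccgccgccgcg
Adipoq held CCAAT or its reverse complement 3 times within its last 34 bases before the start, and Lep held the palindrome TTGCGCAA from 55 to 48 bases before it. Cebpa had TATAAA from 30 to 25 bases before its start, whereas the match in Cebpb lay past the start, in a window with 80.7% G and C against 67.3% in that of Cebpa. Promoters were found for 9 of the 10 members, all but Adrb3. These 9 genes had 12 promoters between them. The C/EBP string stood in 2 of the 12, those of Lep and of a start of Rbp4, and in 10.8% of all 32544 promoters; CCAAT stood in 2 of 12 and in 37.4%, and TATAAA in 4 of 12 and in 13.6%. A match describes the letters and is not evidence of binding.

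The libraries themselves set how far the members can be read. Med13, which checks the genotype, was 18.4-fold higher in MED13cTg ventricles (log2 difference 4.08, SE 0.17, limma adjusted p = 0.000281) and differed little in EWAT (log2 difference -0.05, SE 0.22, adjusted p = 0.943). Rank correlations among the WT EWAT libraries were 0.958 to 0.972, but those of MED13cTg replicate 1 with the other 5 were 0.350 to 0.494, and those of MED13cTg replicate 2 reached no higher than 0.852. Summed over 14 genes of the epididymis, the duct next to this fat pad, the WT libraries held 77600 to 101100 FPKM, and MED13cTg replicates 1, 2 and 3 held 12380, 242 and 78960 FPKM. Over 9 germ cell genes of the testis the WT libraries held 254 to 330 FPKM, against 17730, 8.35 and 392 FPKM in the MED13cTg libraries. No marker of either list was at 0 in every library. Absolute depth is unknown from FPKM; the ratios of the lowest values gave MED13cTg replicate 2 0.747 times the fragments of WT replicate 1, the other libraries apart from MED13cTg replicate 1 gave 0.859 to 0.933, and MED13cTg replicate 1 had no clear peak. The part of these RNAs in the differences below was not tested, and in bulk tissue fewer cells of a type and less RNA per cell cannot be told apart.

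In EWAT no member passed the test between genotypes. Over the 14967 genes averaging 1 FPKM or more, limma on log2(FPKM + 1) called 2 (0.0134%) at an adjusted p of 0.05, both lower in MED13cTg, and 0 when replicate numbers entered as a block. The direction of the calls turned with single libraries: 2 genes were called without MED13cTg replicate 1, 1 without replicate 2 and 1 without replicate 3, all of them higher in MED13cTg. It called 0 of the 10 members, of which 0 also had an unadjusted p under 0.05, as 187 of all genes (1.25%) had. MED13cTg replicates 1 and 2 lay on opposite sides of WT. In MED13cTg replicate 1, 10 of 10 members were below every WT library, as 48.2% of all genes were. In MED13cTg replicate 2, 9 of 10 were above every WT library, as 38.2% of all genes were; both held at once for 9 members and for 20.4% of all genes. No member had all its MED13cTg libraries on one side of all its WT libraries, as 4.88% of all genes had upward and 7.8% downward. In MED13cTg replicate 3, 1 member was above every WT library and 4 were below, as 20.9% and 23.3% of all genes were. Differences on this scale understate those of genes with low values.

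**Figure D1:**
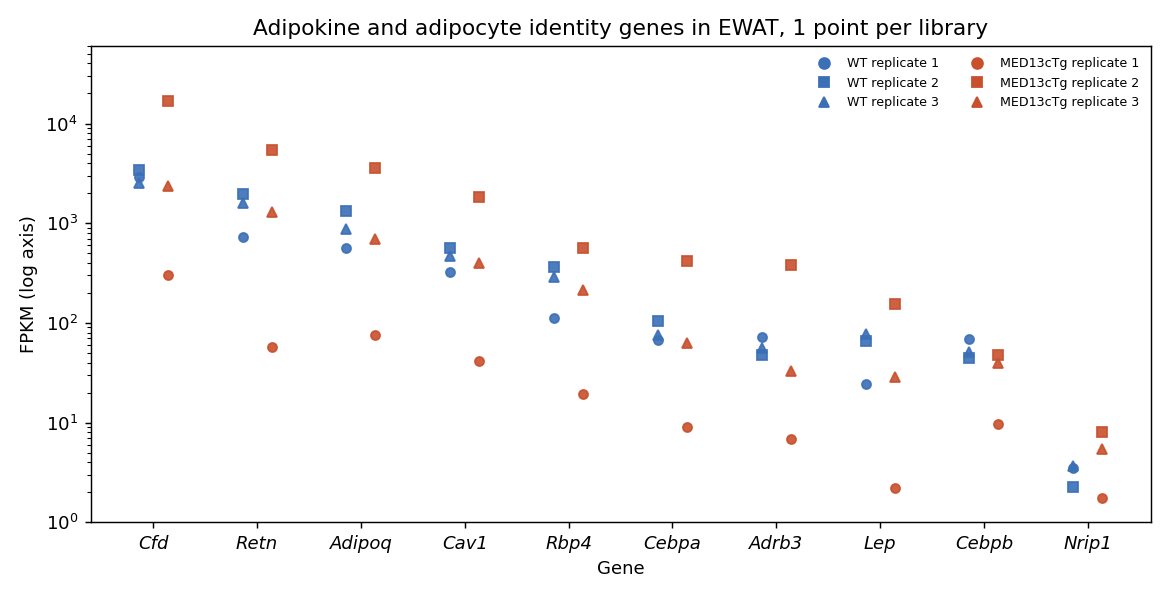
FPKM of the 10 members in each EWAT library, on a log axis, ordered by the WT mean; blue points are WT and red points MED13cTg, with a symbol for each replicate. MED13cTg replicate 1 is the lowest point of all 10 genes, and MED13cTg replicate 2 the highest of all but Cebpb.

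Adipoq encodes adiponectin and lies at mm9 chr16:23146608-23158041. The WT libraries of EWAT held 560, 1330 and 877 FPKM of it, and the MED13cTg libraries 76.2, 3609 and 688 FPKM. MED13cTg replicate 3 was within the WT range, replicate 1 was 12.1-fold below the WT mean and replicate 2 was 3.91-fold above it. The means were 923 ± 387 and 1458 ± 1888 FPKM (SD, n = 3 each), so the ratio of means was 1.58 while the log2 difference was -0.59 (SE 1.40, limma adjusted p = 0.878).

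Lep encodes leptin, which reports the size of the fat stores to the brain (mm9 chr6:29010220-29023876). WT libraries held 24.4, 66.4 and 77.2 FPKM, and MED13cTg libraries 2.20, 156 and 28.6 FPKM. WT replicate 1 and MED13cTg replicate 3 were close to each other, below the other WT libraries, and MED13cTg replicate 1 was 25.5-fold below the WT mean. The means were 56.0 ± 27.9 and 62.4 ± 82.5 FPKM (SD, n = 3 each), with a log2 difference of -1.06 (SE 1.43, limma adjusted p = 0.780). That estimate was the lowest of the 10, and its 95% interval ran from -4.60 to 2.49.

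Retn encodes resistin, named for its link to insulin resistance in mice (mm9 chr8:3655232-3659818). WT levels were 730, 1961 and 1596 FPKM, compared with 57.0, 5370 and 1289 FPKM in MED13cTg. No member was spread more widely among the MED13cTg libraries, the highest being 94.2 times the lowest, against 2.69 times in WT. Its log2 difference was -0.84 (SE 1.67, limma adjusted p = 0.856).

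Cfd encodes adipsin, the complement factor D that fat releases (mm9 chr10:79353597-79355401), and it had the highest level of the members in every EWAT library. WT mice had 2880, 3452 and 2531 FPKM, compared with 304, 16760 and 2378 FPKM in MED13cTg. WT libraries were close together, 1.36 times from lowest to highest, and MED13cTg replicate 3 was just under them. The log2 difference was -0.35 (SE 1.45, limma adjusted p = 0.934).

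Rbp4 encodes the retinol carrier of the blood (mm9 chr19:38191109-38199811). In WT it reached 111, 360 and 286 FPKM, compared with 19.5, 564 and 212 FPKM in MED13cTg, with MED13cTg replicate 3 inside the WT range. Its log2 difference was -0.74 (SE 1.28, limma adjusted p = 0.828). Adipoq, Retn, Rbp4, Cebpa and Cav1 shared 1 order among the WT libraries, lowest in replicate 1 and highest in replicate 2, an order seen for 21.4% of all genes.

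The 2 C/EBP genes differed from each other in MED13cTg replicate 2. Cebpa, which keeps the mature adipocyte program on (mm9 chr7:35904311-35906951), reached 66.6, 104 and 74.7 FPKM in WT, compared with 8.998, 414 and 63.5 FPKM in MED13cTg, where replicate 2 was 5.07-fold above the WT mean. Cebpb, which acts early in adipogenesis and is present in many other cells (mm9 chr2:167514414-167515918), reached 68.6, 44.7 and 50.8 FPKM in WT, compared with 9.60, 48.0 and 39.6 FPKM in MED13cTg. It was the member that replicate 2 left within the WT range. The log2 differences were -0.33 (SE 1.32, limma adjusted p = 0.930) for Cebpa and -0.99 (SE 0.62, limma adjusted p = 0.738) for Cebpb. The spread of Cebpb among the MED13cTg libraries was 4.999-fold, against 46.0-fold for Cebpa.

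Nrip1 encodes RIP140, a corepressor of nuclear receptors that limits oxidative genes in fat (mm9 chr16:76291106-76373294), and it had the lowest level of the members in EWAT WT libraries. WT libraries gave 3.48, 2.25 and 3.63 FPKM, compared with 1.75, 8.01 and 5.39 FPKM in MED13cTg. MED13cTg replicates 2 and 3 were both above every WT library and replicate 1 was below them, so the groups overlapped. Its log2 difference, 0.41 (SE 0.50, limma adjusted p = 0.758), was the one above 0 among the 10; 9 of 10 members, and 49.3% of all genes, were below 0.

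Adrb3 encodes the β3-adrenergic receptor (mm9 chr8:28336247-28340348). WT libraries gave 71.8, 47.9 and 55.6 FPKM, compared with 6.78, 381 and 33.3 FPKM in MED13cTg. In MED13cTg replicate 2 it was 6.52-fold above the WT mean, the widest such gap of the members, while replicate 3 was below every WT library. Among the WT libraries it was highest in replicate 1 and lowest in replicate 2, the reverse of Adipoq. Its log2 difference was -0.33 (SE 1.38, limma adjusted p = 0.936).

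Cav1 encodes caveolin-1 (mm9 chr6:17256334-17292973). Its levels were 322, 568 and 469 FPKM in WT, compared with 41.3, 1848 and 401 FPKM in MED13cTg, with replicate 3 again inside the WT range. Its log2 difference was -0.49 (SE 1.36, limma adjusted p = 0.898). Cav1 followed Adipoq most closely of the members, as the correlations given further on show.

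The direction of these estimates turned on the 2 libraries that stood apart. Without MED13cTg replicate 1 the log2 difference was above 0 for 9 members, such as 0.86 for Adipoq and 1.11 for Cfd, with Cebpb at -0.30. Without MED13cTg replicate 2 it was below 0 for 9 members, such as -1.91 for Adipoq and -2.39 for Lep, with Nrip1 at 0.04. The median over all genes tested was -0.03 without MED13cTg replicate 1 and -0.05 without MED13cTg replicate 2. With both left out, MED13cTg replicate 3 alone stood against the 3 WT libraries; the log2 differences then ran from -0.79 for Lep to 0.65 for Nrip1, with Adrb3 at -0.78, Cebpb at -0.43, Adipoq at -0.34 and Rbp4 at -0.08. No member was called in any of these 3 fits, and the last one assumes that the lone library varies like WT. Across all genes the count of calls without both was 19, of which 17 were higher in MED13cTg.

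Read library by library against the WT mean on the log2(FPKM + 1) scale, the members lay close to the rest of the adipocyte genes. The median over the 10 members was -3.33 in MED13cTg replicate 1, 2.04 in replicate 2 and -0.32 in replicate 3. Over 24 other genes of adipocyte structure and lipid handling, among them Fabp4, Scd1 and Lpl, it was -2.95, 2.11 and -0.10, and over all genes tested it was -0.10, -0.07 and -0.02. WT replicate 1 had a member median of -0.36 and an adipocyte list median of -0.66, and WT replicate 2 had 0.36 and 0.56. Aqp7, a glycerol channel, was the only 1 of the 24 above its WT mean in MED13cTg replicate 1, at 52.3 FPKM against 11.97 to 30.6 FPKM in WT. Dgat2 was within its WT range there, at 113 FPKM against 96.3 to 239 FPKM. Both were picked out after their values were seen. That library also held the highest sum of germ cell genes, 17730 FPKM, whose part in these levels was not tested.

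**Figure D2:**
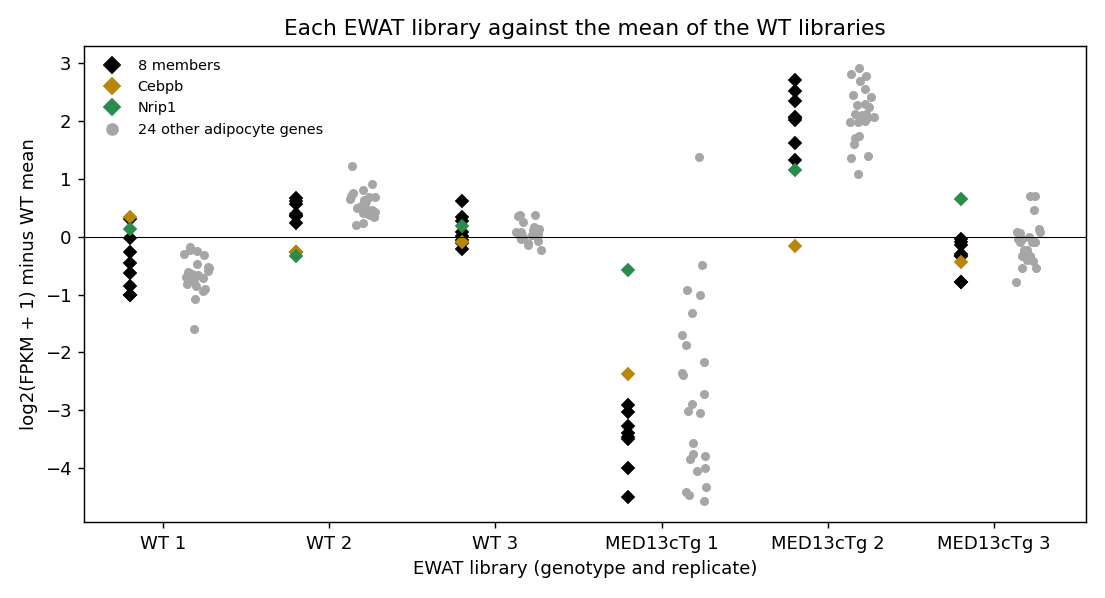
Each point is a gene in an EWAT library, as log2(FPKM + 1) minus the WT mean of that gene; diamonds are the 10 members, with Cebpb and Nrip1 coloured, and grey points are 24 other adipocyte genes. Both sets sit low in MED13cTg replicate 1 (medians -3.33 and -2.95) and high in replicate 2 (2.04 and 2.11), and Cebpb stays near 0 in replicate 2.

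To compare members with other adipocyte genes, each was set against the mean log2(FPKM + 1) of those 24 genes in the same library. This took up most of the spread of 8 members: over the 6 libraries Adipoq ranged over 0.81 log2 units in place of 5.55, Cebpa over 0.69 in place of 5.38 and Cav1 over 0.87 in place of 5.45. Lep, Retn, Rbp4, Cfd and Adrb3 kept ranges of 1.05 to 1.98. Cebpb and Nrip1 became more spread, 3.28 in place of 2.72 and 3.12 in place of 1.72. The 24 genes did not move together in MED13cTg replicate 1, where they ran from -4.56 to 1.37 against their WT means. The part of this spread in the relative levels of that library, those of Lep included, was not tested.

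Lep was the member whose genotypes separated on this relative scale. It was at -2.08, -1.90 and -1.19 in WT and at -3.01, -2.22 and -2.41 in MED13cTg, so the genotypes did not overlap and the MED13cTg mean less the WT mean was -0.82. Such a separation occurred for 34 genes downward (0.227% of all genes) and 10 upward (0.0668%). On the FPKM scale it occurred for 7.8% downward and 4.88% upward. Subtracting the adipocyte mean spreads every gene that does not follow it, as it did Cebpb and Nrip1. The low shares on the relative scale therefore cannot show how rare the separation of Lep is. The exact two-sided permutation test gave p = 0.1 for Lep, the smallest that 3 against 3 libraries allow, and 0.667 after Benjamini-Hochberg adjustment over the 10 members; limma on the relative values gave an adjusted p of 1.00. The gap between the nearest libraries of the genotypes was small, -2.08 against -2.22. The other members overlapped between genotypes, with mean differences from -0.75 for Cebpb (exact permutation p = 0.5) to 0.65 for Nrip1 (exact permutation p = 0.7), and -0.36 for Adipoq (exact permutation p = 0.2). Without MED13cTg replicate 1 the difference was -0.59 for Lep and -0.15 for Adipoq. It was then -0.0086 for Retn in place of -0.60, and -0.0431 for Cav1 in place of -0.25.

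**Figure D3:**
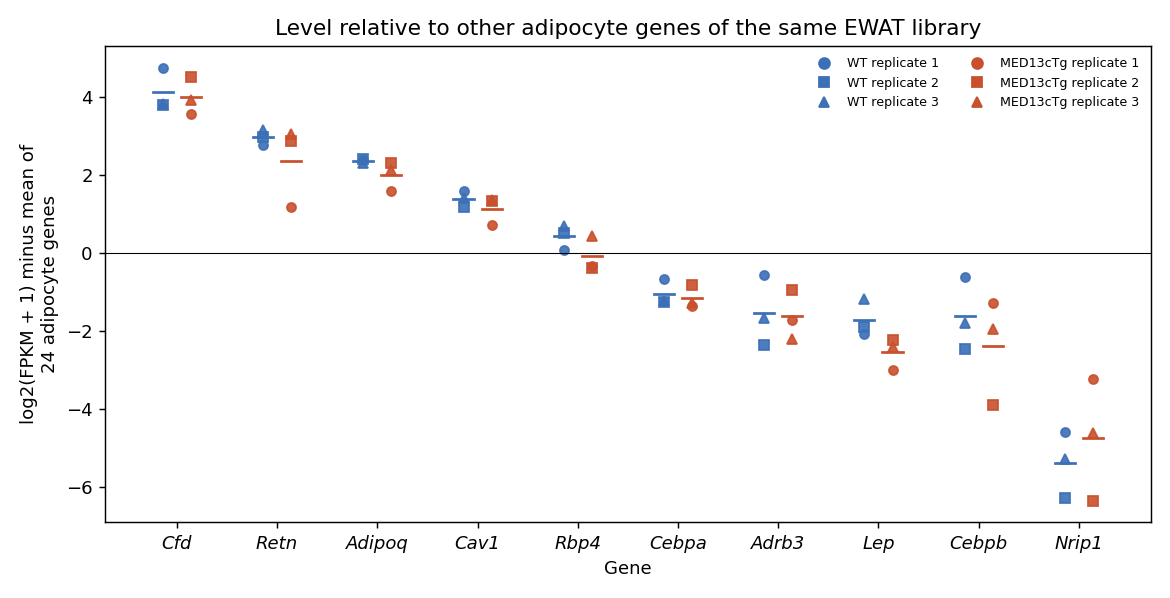
Level of each member relative to the mean of 24 other adipocyte genes of the same EWAT library, in log2 units; points are libraries and short lines are group means. The 3 MED13cTg points of Lep are below its 3 WT points, and the genotypes overlap for the other 9 members.

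The same relative scale showed an opposite pull within WT for some members. Adrb3 was at -0.56 in WT replicate 1 but -2.37 and -1.66 in replicates 2 and 3, and Cfd was at 4.75 there against 3.77 and 3.82. MED13cTg replicate 2 resembled WT replicate 1 for both genes, at -0.94 for Adrb3 and 4.51 for Cfd. Cebpa likewise was highest in these libraries, at -0.67 in WT replicate 1 and -0.82 in MED13cTg replicate 2, against -1.36 to -1.24 in the rest. Cebpb was at -3.91 in MED13cTg replicate 2, against -2.46 to -0.63 in WT. Rbp4 was below 0 in MED13cTg replicates 1 and 2, at -0.33 and -0.38, and above 0 in the other 4 libraries.

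The order of levels in WT EWAT, by mean FPKM, was Cfd at 2954, Retn at 1429, Adipoq at 923, Cav1 at 453, Rbp4 at 252, Cebpa at 81.6, Adrb3 at 58.5, Lep at 56.0, Cebpb at 54.7 and Nrip1 at 3.12. The WT ranges of neighbours in this order overlapped, except at 3 steps: Cfd and Retn, Rbp4 and Cebpa, and Cebpb and Nrip1. Within each WT library, however, Retn was above Adipoq, Adipoq above Cav1 and Cav1 above Rbp4. Leptin mRNA was more than a factor of 10 below that of adiponectin in each WT library. Its WT mean was near those of Adrb3 and Cebpb, although in WT replicate 1 Lep was at 24.4 FPKM against 71.8 FPKM for Adrb3 and 68.6 FPKM for Cebpb.

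Genes whose pattern was most like that of Adipoq were sought by Pearson's r of log2(FPKM + 1) over the 6 EWAT libraries. The 5 closest were Xdh (xanthine dehydrogenase, r = 0.9999), Acp5 (an acid phosphatase, r = 0.9995), Gimap6 (a GTPase, r = 0.9995), 9030617O03Rik (r = 0.9992) and Mmd (r = 0.9992). Xdh, for example, had 41.6, 90.8 and 62.9 FPKM in WT, compared with 7.47, 205 and 51.3 FPKM in MED13cTg. Among the members r was 0.996 for Cav1, 0.990 for Retn, 0.989 for Cebpa, 0.978 for Lep and for Cfd, 0.976 for Rbp4, 0.924 for Adrb3, 0.781 for Cebpb and 0.730 for Nrip1. These are descriptions over 6 points that share the libraries standing apart, and 9.57% of all genes had an r above 0.95.

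The wider set of genes around the members gave no calls either. Of the 24 adipocyte structure and lipid genes, 0 passed the test in either direction; 17 had a log2 difference below 0 and the list's median was -0.30, against 0.01 over all genes. Fabp4, the fatty acid binding protein of fat cells, had 8454, 23380 and 15510 FPKM in WT, compared with 726, 48370 and 11970 FPKM in MED13cTg. Scd1, a fatty acid desaturase, had a log2 difference of -0.66 (SE 1.70, limma adjusted p = 0.888), and Lpl, the lipase that takes up circulating fat, one of -0.68 (SE 1.77, limma adjusted p = 0.888). In 22 of these 24 genes MED13cTg replicate 1 was below and replicate 2 above every WT library.

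Of 16 other transcription factors of adipocytes 0 were called, with 8 estimates on each side of 0 and a median of 0.02. Pparg, the master regulator of fat cells, had 50.3, 103 and 83.3 FPKM in WT, compared with 7.09, 444 and 77.9 FPKM in MED13cTg. Srebf1 and Nr1h3, regulators of lipid synthesis, had log2 differences of -0.46 (SE 0.92) and -0.16 (SE 0.89). The pattern of low replicate 1 and high replicate 2 held for 10 of the 16.

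Receptors and partners of the members had 21 of 23 genes tested, 0 called, 15 below 0 and a median of -0.27. Cavin1, which forms caveolae with Cav1, took the course of Cav1: 160, 271 and 224 FPKM in WT, compared with 21.4, 896 and 173 FPKM in MED13cTg. Adipor1, the adiponectin receptor found in many tissues, had 99.8 to 111 FPKM in WT, compared with 77.2 to 98.7 FPKM in MED13cTg (log2 difference -0.21, SE 0.21, limma adjusted p = 0.738). It was 1 of 2 genes of the 21 with every MED13cTg library below every WT library, as 7.8% of all genes were. The other, picked out after its values were seen, was Cav3, the muscle caveolin, with 2.99 to 4.74 FPKM in WT, compared with 0.857, 0.230 and 2.39 FPKM in MED13cTg (log2 difference -1.26, SE 0.46, limma adjusted p = 0.738).

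Of 25 other secreted factors of fat, 18 were tested and 0 were called, with 13 below 0 and a median of -0.32. Lcn2, lipocalin 2, had 4311 to 5896 FPKM in WT, compared with 629, 34.3 and 4415 FPKM in MED13cTg, an order like that of the epididymis sum given above. Apoe, apolipoprotein E, had a log2 difference of -0.80 (SE 0.88, limma adjusted p = 0.742). Retnla, a relative of resistin, had 78.9, 362 and 300 FPKM in WT, compared with 13.1, 763 and 163 FPKM in MED13cTg.

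Markers of other cells also varied between the EWAT libraries. The sum of 8 endothelial genes was 160 to 257 FPKM in WT, compared with 34.7, 492 and 166 FPKM in MED13cTg, that of 11 preadipocyte and fibroblast genes was 991 to 1644 FPKM and 307, 3154 and 1525 FPKM, and that of 8 macrophage genes was 90.5 to 193 FPKM and 64.3, 370 and 127 FPKM. Mesothelial genes summed to 142 to 165 FPKM in WT, compared with 46.4, 87.3 and 149 FPKM in MED13cTg. In WT this sum was mostly Krt19, at 113 to 151 FPKM, which had 17.2, 16.0 and 130 FPKM in MED13cTg. Msln, Upk3b, Lrrn4 and Wt1, the rest of the list, were above every WT library in MED13cTg replicate 2. Upk3b, for example, had 34.9 FPKM there against 3.06 to 11.7 FPKM in WT. Wt1 was higher still in MED13cTg replicate 1, at 26.6 FPKM against 6.12 FPKM in replicate 2 and 0.979 to 1.997 FPKM in WT. Msln and Upk3b were below every WT library in replicate 1, at 0.437 and 0.896 FPKM, and Lrrn4 was within its WT range. The genes of this list were picked out after their values were seen. Lymphocyte genes summed to 2.92 to 6.05 FPKM in WT, compared with 6.22, 6.01 and 3.17 FPKM in MED13cTg. Brown adipocyte genes summed to 30.1 to 143 FPKM in WT, compared with 18.3, 373 and 87.2 FPKM in MED13cTg. Cox8b made up most of this sum in every library but MED13cTg replicate 1, where it had 4.86 FPKM. Prdm16 had 0.985 FPKM in MED13cTg replicate 2, against 1.86 to 2.58 FPKM in WT. Cidea had 8.997 and 8.94 FPKM in MED13cTg replicates 1 and 2, against 2.10 to 5.51 FPKM in WT. These genes were picked out after their values were seen. Ucp1, the defining gene of brown fat, was at 0.339 to 1.41 FPKM over the 6 libraries; it was also picked out after its values were seen. Cardiomyocyte genes summed to 35.5 to 48.6 FPKM in WT, compared with 55.6, 27.9 and 47.3 FPKM in MED13cTg. In WT this was mostly Tnnt2, at 28.1 to 43.9 FPKM, which had 8.85, 5.08 and 42.5 FPKM in MED13cTg. Tnni3 had 45.1 FPKM in MED13cTg replicate 1, against 3.41 to 5.49 FPKM in WT. Myl2 had 11.2 FPKM in MED13cTg replicate 2, against 0 to 0.527 FPKM in WT. These genes, too, were picked out after their values were seen. None of these lists, nor those of the epididymis and testis, had a gene called.

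In ventricles, the tissue that carries the transgene product, the members were measured for reference. The tables of the tissues were made separately, so levels are set side by side without a test. WT EWAT means were above WT ventricle means by factors of 357 for Lep, 293 for Retn, 255 for Adrb3, 190 for Cfd, 144 for Adipoq, 99.1 for Rbp4 and 17.2 for Cebpa, and for these 7 members all 6 EWAT libraries were above every ventricle library. Cav1, Cebpb and Nrip1, which are made by many cell types, had ratios of 1.58, 0.854 and 0.688 and overlapped between the tissues in WT. In MED13cTg replicate 1 of EWAT, Cav1 at 41.3 FPKM, Cebpb at 9.60 FPKM and Nrip1 at 1.75 FPKM were below every ventricle library.

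**Figure D4:**
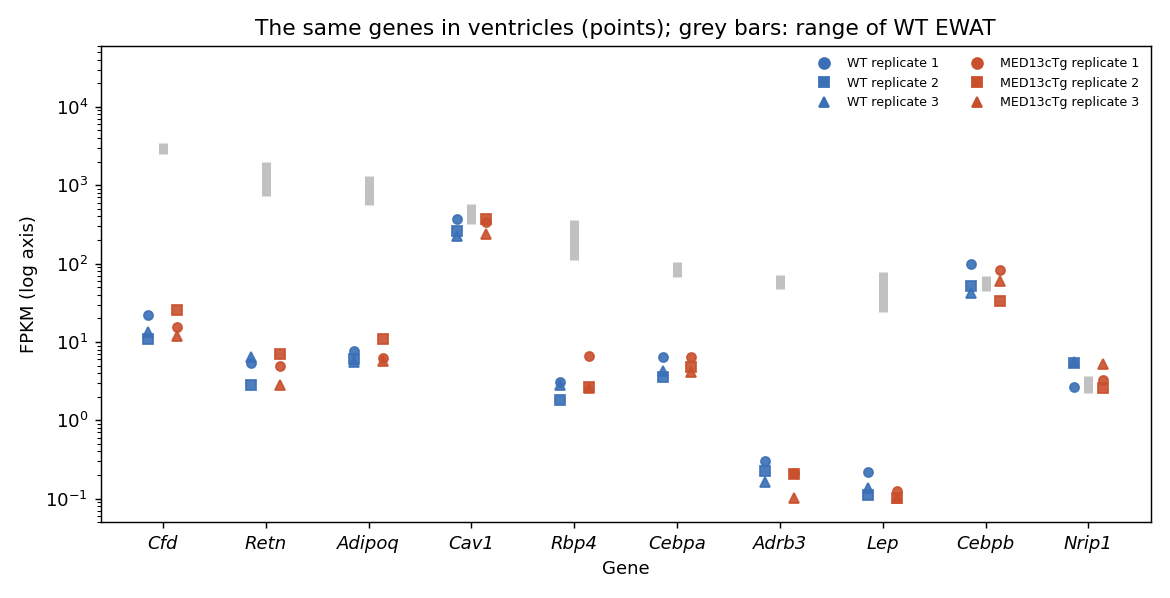
FPKM of the members in each ventricle library (points, log axis), with the range of the 3 WT EWAT libraries as a grey bar. Cav1, Cebpb and Nrip1 overlap their EWAT bars, the other 7 members lie below theirs, and Lep and Adrb3 are under 1 FPKM.

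No member passed the test between genotypes in ventricles. Of 12589 genes tested, 7 were called (0.0556%), 3 of them higher and 4 lower in MED13cTg, and 595 (4.73%) had an unadjusted p under 0.05. Of the 8 members tested 0 were called and 0 had an unadjusted p under 0.05. Lep, at 0.111 to 0.222 FPKM in WT, compared with 0.101 to 0.124 FPKM in MED13cTg, and Adrb3, at 0.162 to 0.300 FPKM and 0.102 to 0.213 FPKM, were under the limit of 1 FPKM and were not tested. No member tested had all libraries of a genotype above those of the other, as 3.46% of all genes had for MED13cTg above WT and 5.85% for WT above MED13cTg.

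Among the adipokines, Adipoq in ventricles had 7.66, 5.99 and 5.57 FPKM in WT, compared with 6.25, 10.9 and 5.68 FPKM in MED13cTg (log2 difference 0.18, SE 0.24, limma adjusted p = 0.966). Cfd was at 22.3, 11.0 and 13.4 FPKM and at 15.3, 25.2 and 11.8 FPKM, and Retn was at 5.44, 2.82 and 6.38 FPKM and at 4.90, 7.002 and 2.78 FPKM. These were the 3 of the 8 members tested that had their highest value in MED13cTg replicate 2, as 21.9% of all genes had. The sum of the epididymis genes was 101 FPKM in that library and 111 FPKM in WT replicate 1, against 48.0 to 67.8 FPKM in the other 4; its part in these levels was not tested.

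Rbp4 had 3.05, 1.81 and 2.78 FPKM in WT ventricles, compared with 6.70, 2.69 and 2.56 FPKM in MED13cTg, so a single library, replicate 1, carried the log2 difference of 0.41 (SE 0.32, limma adjusted p = 0.966); without it the difference was 0.05. Cebpb was at 98.8, 51.6 and 42.0 FPKM and at 81.8, 33.4 and 59.6 FPKM (log2 difference -0.13, SE 0.41, limma adjusted p = 0.978). Cebpa was at 3.56 to 6.40 FPKM in WT, compared with 4.12 to 6.47 FPKM in MED13cTg. Nrip1 was at 2.63, 5.36 and 5.62 FPKM and at 3.25, 2.61 and 5.21 FPKM (log2 difference -0.23, SE 0.29, limma adjusted p = 0.966). Cav1, which had the highest level of the members there, was at 373, 260 and 225 FPKM and at 339, 371 and 238 FPKM (log2 difference 0.15, SE 0.25, limma adjusted p = 0.968).

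Cut into 2 clusters by rank correlation, a number fixed in the method, the ventricle libraries grouped across the genotypes. WT replicate 1 fell with MED13cTg replicates 1 and 2, and WT replicates 2 and 3 with MED13cTg replicate 3. The clusters were little apart: correlations were 0.959 to 0.969 within them and 0.944 to 0.957 between them. The first cluster holds 1 WT library and the second 1 MED13cTg library, so the differences within them rest on single libraries. Within the clusters the log2 difference of Cebpb was -0.90 and 0.35, that of Nrip1 0.11 and -0.06, that of Cebpa -0.17 and 0.06, that of Retn 0.09 and -0.49 and that of Adipoq 0.10 and -0.02. Rbp4, at 0.40 and 0.13, Cfd, at -0.17 and -0.04, and Cav1, at -0.07 and -0.02, had the same sign in both, and for Cfd and Cav1 this was opposite to the sign over all libraries. In ventricles 0 genes were called of the adipocyte structure, transcription factor, partner and secreted factor lists, whose median log2 differences were -0.05, -0.14, 0.00 and 0.14, against -0.01 over all genes.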

How the data were processed

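RNA was isolated from EWAT and ventricles with Trizol, and libraries were made with an Illumina TruSeq kit. The authors ran TopHat for alignment and Cufflinks for expression, with the defaults of each; the labels name the build mm9, and versions are not given in the sources used here. They deposited 1 table per tissue of FPKM, which corrects for transcript length and mapped fragments but not for the mixture of cells. The authors' mean and fold columns were not used, nor was 1 unnamed column of values.

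The 10 members and all gene lists were chosen with earlier results of these data known. Genes averaging 1 FPKM or more across the 6 libraries of their tissue entered a comparison on log2(FPKM + 1), a pseudocount of 1 FPKM, with limma 3.58.1 in R 4.3.3 (mean-variance trend, no covariate, Benjamini-Hochberg adjustment, threshold 0.05), each tissue on its own. Members were also set against 24 adipocyte genes of the same library, with exact two-sided permutation tests. The text names the members, Med13, the 3 genes of each pathway list with the highest WT mean in EWAT, and the 5 genes nearest to Adipoq; others are named as chosen after their values were seen. 1 gene that this rule names is not reported here. Plots used matplotlib 3.10.9 and Python 3.11.15.

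Replicate numbers come from the sample titles and mark different mice. In EWAT the deviations of libraries with the same number correlated at 0.347, 0.304 and 0.144, all above 0.1. A fit with the number as a block is therefore given where it changes a call. Libraries with different numbers correlated at up to 0.168, above the value of replicate 3. The limma p-values set a genotype difference against the spread between libraries of a genotype, which in EWAT includes MED13cTg replicates 1 and 2. The permutation p-values set it against the other ways to assign the libraries to 2 groups of 3. Alternatives were a pseudocount of 0.1, the filter dropped or raised to 5 FPKM, scaling by median of ratios, quantiles, array weights, no trend, the replicate block, the adipocyte-relative scale and each library left out; leaving out 2 MED13cTg EWAT libraries together and a ventricle cluster covariate were added after seeing the data. Simulated data with known changes were used to check the limma code. Relative depth was read from genes under 0.15 FPKM, as the commonest ratio to WT replicate 1.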

Additional observations from a re-analysis of the deposited data

How the results depend on the processing

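No member was called under any of the 16 alternatives in EWAT or the 15 in ventricles. In EWAT, 144 of 159 refitted log2 differences of members kept their sign. With array weights the difference turned to 0.20 for Adipoq, 0.15 for Retn, 0.54 for Cfd, 0.42 for Cebpa, 0.33 for Adrb3 and 0.31 for Cav1, and with quantile normalization to 0.0076 for Cfd; the cause was not tested. Leaving out each library in turn gave ranges of -1.91 to 0.86 for Adipoq, -2.39 to 0.42 for Lep, -2.27 to 1.00 for Retn, -1.78 to 1.11 for Cfd, -1.78 to 0.62 for Rbp4, -1.68 to 1.01 for Cebpa, -1.84 to 0.96 for Adrb3 and -1.76 to 0.96 for Cav1, positive in each case without MED13cTg replicate 1; Cebpb and Nrip1 kept their sign. On the adipocyte-relative scale, which moved the median of all genes to 0.25, the same ranges were -0.37 to 0.20 for Cfd, -0.27 to 0.10 for Cebpa, -1.31 to 0.0086 for Cebpb, -0.11 to 1.45 for Nrip1 and -0.51 to 0.39 for Adrb3; Adipoq stayed between -0.50 and -0.15, Lep between -0.997 and -0.55, Retn between -0.94 and -0.0086, Rbp4 between -0.77 and -0.36 and Cav1 between -0.36 and -0.0431.

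The count of 2 called genes in EWAT became 0 with no filter, with array weights, with the adipocyte-relative scale and with the replicate block (unadjusted p under 0.05 in 323, 61, 19 and 296 genes), 19 without MED13cTg replicates 1 and 2 together, and 1 to 5 when single libraries were left out, where the calls were higher in MED13cTg in each fit without a MED13cTg library. The block changed no other call in EWAT.

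In ventricles 99 of 116 kept their sign. Array weights turned Retn to 0.40 and Cebpb to 0.30, and the cluster covariate turned Cfd to -0.10, Cebpa to -0.0588, Nrip1 to 0.0232 and Cav1 to -0.0486. Leaving out single libraries gave -0.0793 to 0.34 for Adipoq, -0.29 to 0.28 for Retn, -0.14 to 0.42 for Cfd, -0.0551 to 0.29 for Cebpa, -0.41 to 0.23 for Cebpb and -0.0061 to 0.36 for Cav1. The 7 called genes became 3 with a filter at 5 FPKM, 15 with array weights and 4 with the replicate block, and 4 to 9 when single libraries were left out. Ventricle libraries with the same number correlated at 0.0855, -0.192 and 0.14, and those with different numbers at up to 0.188, so they share only a number. With 3 libraries per genotype, and EWAT standard errors above 1 for 8 members, a change in level of severalfold would not be detectable in EWAT.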
